A study of Mus musculus with 6 samples.

Results

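Selenoproteins carry selenocysteine, an amino acid that is built on its own tRNA and inserted at a UGA codon which would otherwise end the protein. The 10 genes described here are 5 factors that make or decode selenocysteine (*Sephs2*, *Pstk*, *Sepsecs*, *Secisbp2* and *Eefsec*), 3 glutathione peroxidases (*Gpx1*, *Gpx3* and *Gpx4*) and 2 thioredoxin reductases (*Txnrd1* and *Txnrd2*). They were chosen by symbol from the 24346 genes of the deposited table with their FPKM in AdArmc5 KO against Armc5 flox already known, so the difference between the genotypes is given as a description, with no test of any of the 10 genes. FPKM is a level in which the fragments of a gene are scaled to the length of its exons and to the depth of the library, so that genes can be compared.

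Epididymal white adipose tissue (WAT) was collected from AdArmc5 KO (3 libraries) and Armc5 flox (3 libraries) aged 24 weeks, which had been without food for 24 h and had then eaten again for 6 h. The mice of both genotypes carried the floxed allele of *Armc5*, from which the *lacZ* and neomycin resistance cassettes had been removed, and only AdArmc5 KO carried *Adipoq-Cre*, a transgene active in adipocytes, so that other cells of the tissue keep an intact *Armc5*. ARMC5 is a partner of the CUL3 ubiquitin ligase, and the series asks what its loss in adipocytes does to the transcripts of WAT.

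SEPHS2 makes selenophosphate, the selenium donor, and in mammals is a selenoprotein itself. PSTK phosphorylates the serine loaded on the selenocysteine tRNA, SEPSECS exchanges the phosphate for selenium, SECISBP2 binds the hairpin in the mRNA that marks the UGA for decoding, and EEFSEC is the elongation factor that brings the tRNA to the ribosome. Among the products, GPX1 removes hydrogen peroxide in the cytosol, GPX3 is secreted and is abundant in plasma and fat, GPX4 reduces lipid hydroperoxides in membranes and protects cells from ferroptosis, and TXNRD1 and TXNRD2 keep thioredoxin reduced in the cytosol and in mitochondria.

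Of the 10 genes, 6 carry a selenocysteine codon in the GENCODE M21 annotation of mm10, and their codons are shown because they separate the enzymes that contain selenium from the 4 factors (*Pstk*, *Sepsecs*, *Secisbp2* and *Eefsec*) that serve its insertion without containing it. The coding strand is printed from 5′ to 3′ with the in-frame selenocysteine codon in capitals.
*Sephs2*: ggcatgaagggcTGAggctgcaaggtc
*Gpx1*: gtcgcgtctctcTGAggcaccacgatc
*Gpx3*: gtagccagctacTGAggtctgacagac
*Gpx4*: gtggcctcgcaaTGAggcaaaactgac
*Txnrd1*: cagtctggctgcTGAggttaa
*Txnrd2*: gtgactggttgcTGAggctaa

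The codon lies in a coding exon in each case. In *Sephs2*, a gene with a single exon, it is codon 63 of 453, at chr7:127273731-127273733 on the minus strand. In the peroxidases it lies well before the stop codon, at codon 47 of 202 in *Gpx1* (chr9:108339451-108339453), codon 73 of 227 in *Gpx3* (chr11:54907256-54907258) and codon 129 of 254 in the longest coding transcript of *Gpx4* (chr10:80054737-80054739), all on the plus strand. In both reductases only 1 codon stands between selenocysteine and the stop codon, with selenocysteine at codon 612 of 614 in *Txnrd1* (chr10:82896037-82896039) and codon 526 of 528 in *Txnrd2* (chr16:18477772-18477774), also on the plus strand.

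Several libraries stood apart. *Armc5* (chromosome 7 from 128237357 to 128245100) had 3.66 and 4.48 FPKM in AdArmc5 KO replicates 1 and 2 and 5.82 FPKM in the library labelled AdArmc5 KO replicate 3, against 5.12, 5.66 and 5.58 FPKM in Armc5 flox, so the targeted gene did not bear out the label of the last of these KO libraries (log2 fold change −0.21, SE 0.17, adjusted p = 0.98 from limma). *Scd1*, the stearoyl-CoA desaturase at the centre of the series, was lower in every library labelled AdArmc5 KO, that one included, at 989.7, 535 and 249.6 FPKM, against 4339, 3402 and 3542 FPKM in Armc5 flox (log2 fold change −2.87, SE 0.50, adjusted p = 0.67 from limma). The transcripts of the whole tissue were measured, and *Armc5* overlaps 9130023H24Rik on the opposite strand. The 10 markers of epididymis and vas deferens summed to 3807 FPKM in the library labelled AdArmc5 KO replicate 3, and to at most 21.3 in the other 5. The high sum came from *Crisp1* (685) and *Akr1b7* (3122) alone. Every other marker of the list had at most 0.187 FPKM in that library. The 10 markers of ciliated cells summed to 152 FPKM in AdArmc5 KO replicate 2 and 172 FPKM in Armc5 flox replicate 1, against at most 4.30 in the other 4. Depth was 25320740 to 38311567 fragments in a library. Adipocyte markers were abundant in every library (*Adipoq*, 1951 to 4219 FPKM in AdArmc5 KO and 1896 to 3130 FPKM in Armc5 flox). Across 12670 genes tested, limma called 0 lower and 0 higher in AdArmc5 KO at an adjusted p under 0.05, that is 0% in either direction, while 425 (3.35%) had an unadjusted p under 0.05. The paper, by its own analysis, did report genes at a false discovery rate under 0.05, with *Scd1* among the most downregulated. The absence of calls thus holds for the limma fit used here.

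The levels of the 10 genes spanned the peroxidases at the top and the decoding factors at the bottom. Mean FPKM over the 6 libraries was 1056 for *Gpx1*, 815 for *Gpx3*, 662 for *Gpx4*, 53.2 for *Sephs2*, 38.9 for *Txnrd1*, 11.2 for *Txnrd2*, 9.82 for *Pstk*, 8.29 for *Secisbp2*, 8.24 for *Sepsecs* and 5.83 for *Eefsec*. The transcripts of the 3 peroxidases thus exceeded those of every factor that makes or decodes selenocysteine. The order was read from the same values, so neighbours in it are set side by side with no test. *Gpx4* was above *Sephs2* in 6 of 6 libraries (log2 ratio 3.81 ± 0.80, SD), *Txnrd1* above *Txnrd2* in 6 of 6 (1.76 ± 0.35) and *Sepsecs* above *Eefsec* in 6 of 6 (0.49 ± 0.42). The other 6 pairs of neighbours changed places between libraries, among them *Gpx1* and *Gpx3* (0.47 ± 0.80) and *Sephs2* and *Txnrd1* (0.32 ± 0.76), with differences that did not exceed 1 SD of their log2 ratio.

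**Figure D1:**
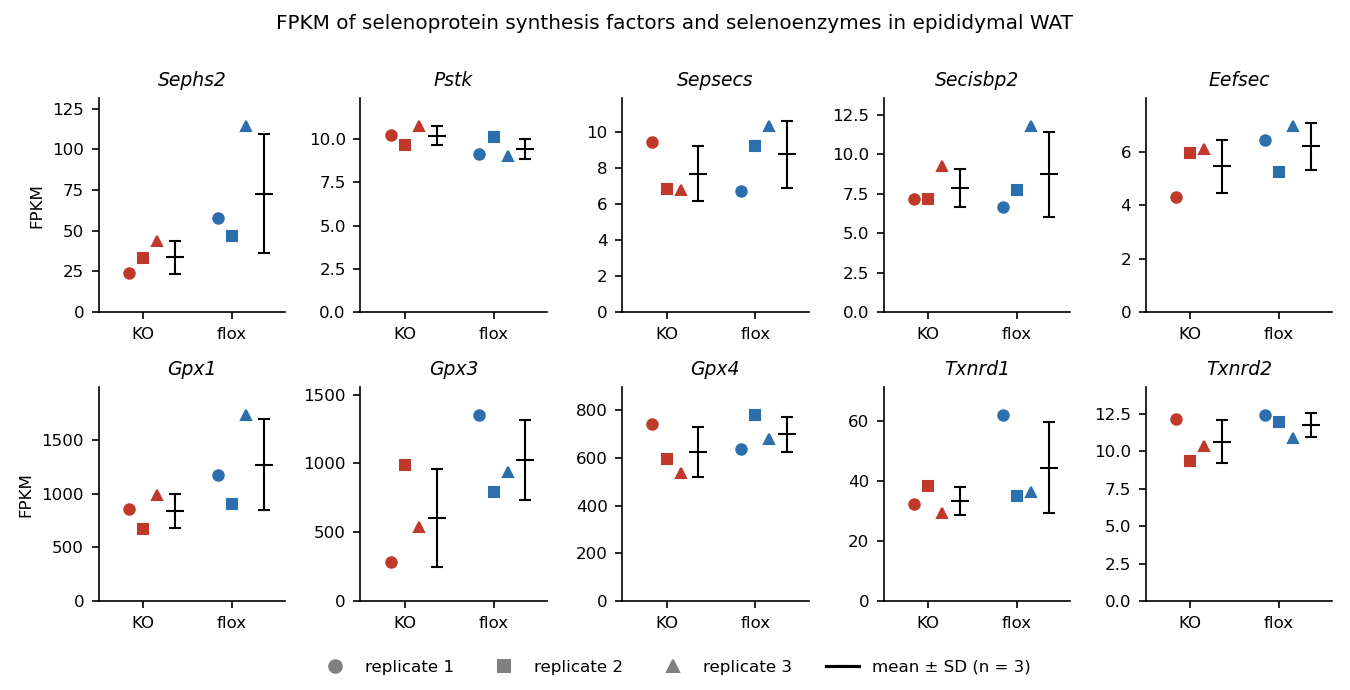
FPKM of each of the 10 genes in the 6 libraries, 1 panel for each gene with its own axis starting at 0; points are libraries, with AdArmc5 KO left of Armc5 flox, and the dash with its bar beside them is the group mean and SD (n = 3 each). *Sephs2* is the gene whose libraries of the genotypes do not overlap, with 23.8 to 44.0 FPKM in AdArmc5 KO and 46.6 to 114 FPKM in Armc5 flox.

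*Sephs2* (NCBI Gene 20768, chromosome 7 from 127271879 to 127274059, minus strand) had 23.8, 33.01 and 44.0 FPKM in AdArmc5 KO replicates 1, 2 and 3, against 57.8, 46.6 and 114 FPKM in Armc5 flox replicates 1, 2 and 3. Every library labelled AdArmc5 KO was below every Armc5 flox library, and the gap between the nearest libraries, 44.0 and 46.6 FPKM, was small beside the spread within Armc5 flox. Means were 33.6 ± 10.1 FPKM in AdArmc5 KO and 72.9 ± 36.3 FPKM in Armc5 flox (SD, n = 3 each), a ratio of 0.461 and a log2 fold change of −1.03 (SE 0.38), the 33rd lowest of the 12670 genes tested. Armc5 flox replicate 3 carried much of this difference, which was −0.65 without it. Without the library labelled AdArmc5 KO replicate 3 the log2 fold change was −1.24, and without the pair of libraries with ciliated cell markers it was −1.15.

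Of the 10 genes, *Sephs2* alone had all AdArmc5 KO libraries below all Armc5 flox libraries, while 0 had them above and 9 overlapped. Among all genes tested, 666 (5.26%) lay wholly below and 449 (3.54%) wholly above, and since the genes were chosen on this contrast the count of 1 in 10 is a description. By the same contrast 9 of the 10 had a log2 fold change below 0, with a median of −0.17, beside 56.5% of all genes tested and a median of −0.03. The values in WAT come from whole tissue, in which fewer cells of a type and less RNA in each cell cannot be told apart.

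*Pstk* (NCBI Gene 214580, chromosome 7 from 131371113 to 131392768) had 10.2, 9.64 and 10.8 FPKM in AdArmc5 KO replicates 1, 2 and 3, against 9.12, 10.1 and 9.03 FPKM in Armc5 flox. It was the steadiest of the 10 genes, its highest library being 1.19 times its lowest, and the one with a log2 fold change above 0 (0.10, SE 0.11). The gene overlaps *Fgfr2* and *Ikzf5* on the opposite strand, so its reads may not all be its own.

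*Sepsecs* (NCBI Gene 211006, chromosome 5 from 52640089 to 52669764) had 9.47, 6.83 and 6.82 FPKM in AdArmc5 KO and 6.74, 9.23 and 10.3 FPKM in Armc5 flox. The libraries of the genotypes interleaved, with the lowest and the highest value both in Armc5 flox (log2 fold change −0.16, SE 0.20, from −0.32 without Armc5 flox replicate 1 to −0.05 without Armc5 flox replicate 3). *Secisbp2* (NCBI Gene 75420, chromosome 13 from 51651682 to 51684044) had 7.17, 7.13 and 9.26 FPKM in AdArmc5 KO, against 6.67, 7.72 and 11.8 FPKM in Armc5 flox. Armc5 flox again held both extremes, and the log2 fold change of −0.11 (SE 0.22) turned to 0.11 without Armc5 flox replicate 3. *Eefsec* (NCBI Gene 65967, chromosome 6 from 88257334 to 88446552) had 4.32, 5.93 and 6.11 FPKM in AdArmc5 KO and 6.41, 5.24 and 6.95 FPKM in Armc5 flox. Its lowest library was AdArmc5 KO replicate 1, and its log2 fold change of −0.16 (SE 0.17) was −0.03 without that library.

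*Sephs2* therefore stood apart from the other 4 factors in its ratio of group means, 0.461 against 0.879 to 1.08, and in the range of its libraries, the highest being 4.79 times the lowest, against 1.19 to 1.77 times for the other 4. The median of this range over all genes tested was 1.67, and 92.1% of them had a smaller one than *Sephs2*. No test of this difference was made, because the same contrast chose the genes.

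**Figure D2:**
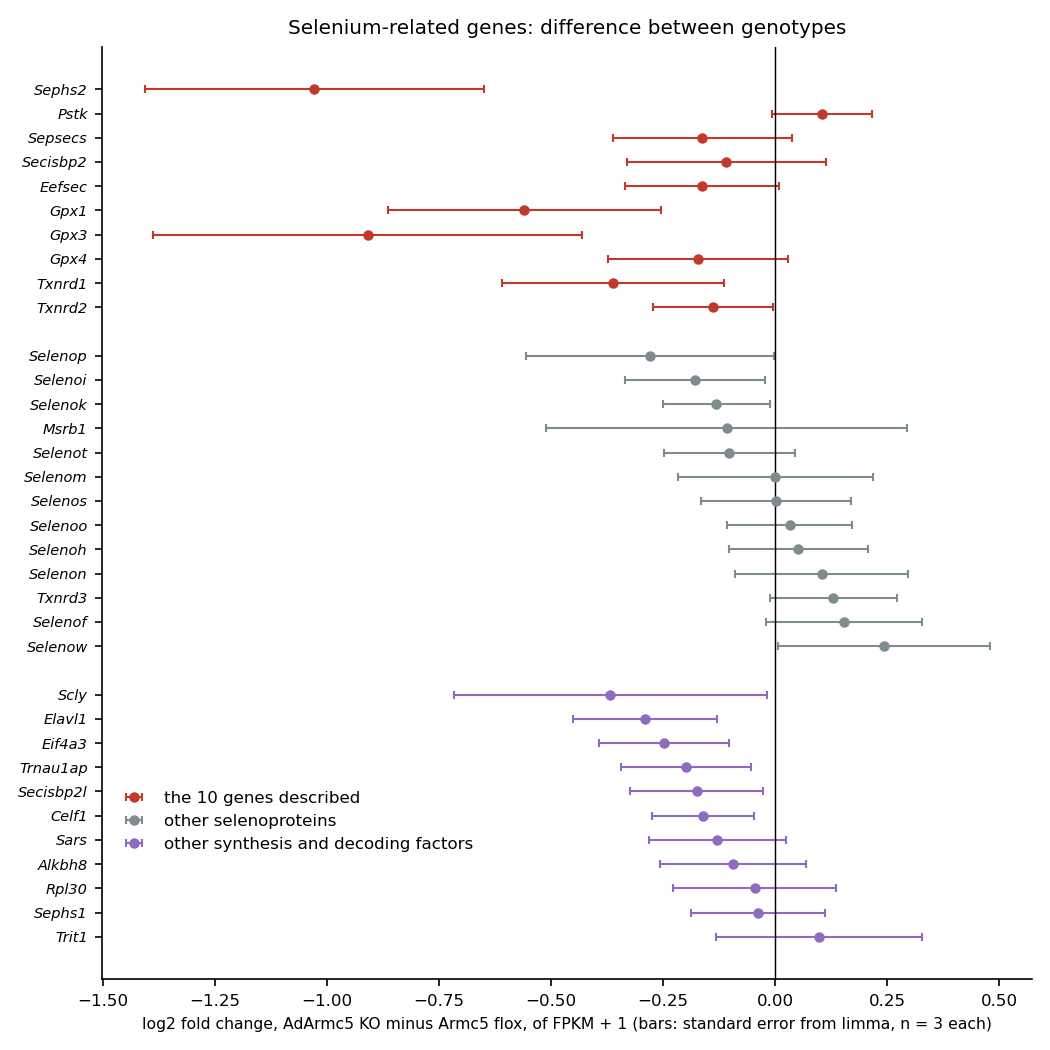
Log2 fold change, AdArmc5 KO over Armc5 flox, on the log2(FPKM + 1) scale, of each of the 10 genes, of 13 other selenoproteins and of 11 other synthesis and decoding factors, 1 row for each gene; bars are the standard error from limma (n = 3 each), and the vertical line marks 0. *Sephs2* (−1.03), *Gpx3* (−0.91) and *Gpx1* (−0.56) lie farthest below 0, and the other selenoproteins lie between −0.28 and 0.24.

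Among the enzymes, *Gpx3* and *Gpx1* had the lowest fold changes. *Gpx3* (NCBI Gene 14778, chromosome 11 from 54902854 to 54910387) had 284, 992 and 537 FPKM in AdArmc5 KO replicates 1, 2 and 3, against 1351, 794.5 and 934 FPKM in Armc5 flox replicates 1, 2 and 3. AdArmc5 KO replicate 2 was above 2 of the Armc5 flox libraries, and the other libraries labelled AdArmc5 KO were below all of them. Means were 604 ± 359 FPKM in AdArmc5 KO and 1026 ± 290 FPKM in Armc5 flox (SD, n = 3 each), with a log2 fold change of −0.91 (SE 0.48) that ranged from −1.36 without AdArmc5 KO replicate 2 to −0.46 without AdArmc5 KO replicate 1. The highest library of each genotype was the one in which ciliated cell markers were high, and without that pair the log2 fold change was −1.14. The genotypes then did not overlap, but smaller groups overlap less often by construction. The share of all genes without overlap was not counted for that setting. The part of those cells in the level of *Gpx3* was not tested.

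*Gpx1* (NCBI Gene 14775, chromosome 9 from 108339080 to 108340342) had 859, 674 and 992 FPKM in AdArmc5 KO replicates 1, 2 and 3, against 1176, 903 and 1734 FPKM in Armc5 flox replicates 1, 2 and 3. The genotypes overlapped through 1 pair of libraries, as the library labelled AdArmc5 KO replicate 3 was above Armc5 flox replicate 2. Means were 842 ± 159 FPKM in AdArmc5 KO and 1271 ± 424 FPKM in Armc5 flox (SD, n = 3 each), a ratio of 0.662 and a log2 fold change of −0.56 (SE 0.31). Armc5 flox replicate 3, which was also the highest library for *Sephs2*, moved it to −0.31 when left out. The 6 erythroid markers summed to 1297 FPKM in that library and to 558 to 732 FPKM in the other 5, mostly through *Hba-a1* (1157 FPKM there and 444 to 648 FPKM elsewhere), while *Hbb-bs*, at 24.1 FPKM there, was higher in 3 other libraries. Their part in the level of *Gpx1* was not tested.

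*Gpx4* (NCBI Gene 625249, chromosome 10 from 80047166 to 80056439) had 742, 595 and 537 FPKM in AdArmc5 KO and 639, 780 and 679 FPKM in Armc5 flox. Its libraries lay closer together than those of the other peroxidases, the highest being 1.45 times the lowest, and the log2 fold change was −0.17 (SE 0.20), from −0.30 without AdArmc5 KO replicate 1 to −0.07 without the library labelled AdArmc5 KO replicate 3. GENCODE also annotates *Gpx4-ps2*, a processed copy of the gene, so some fragments may belong to either.

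*Txnrd1* (NCBI Gene 50493, chromosome 10 from 82833951 to 82897724) had 32.4, 38.4 and 29.3 FPKM in AdArmc5 KO, against 62.0, 35.04 and 36.2 FPKM in Armc5 flox. Armc5 flox replicate 1 was far above the other 5 libraries, and the log2 fold change of −0.36 (SE 0.25) was −0.10 without it. The highest library of each genotype was again the one with high ciliated cell markers, and the log2 fold change was −0.20 without that pair; the part of those cells was not tested. *Txnrd2* (NCBI Gene 26462, chromosome 16 from 18426417 to 18479073) had 12.2, 9.38 and 10.3 FPKM in AdArmc5 KO and 12.4, 11.95 and 10.9 FPKM in Armc5 flox, with a log2 fold change of −0.14 (SE 0.13), from −0.23 without AdArmc5 KO replicate 1 to −0.06 without AdArmc5 KO replicate 2. *Txnrd1* overlaps *Eid3* on the same strand, so its reads may not all be its own.

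Taking the 3 peroxidases as a sum, AdArmc5 KO replicates 1, 2 and 3 had 1884, 2261 and 2065 FPKM, against 3166, 2477 and 3348 FPKM in Armc5 flox replicates 1, 2 and 3. The sums did not overlap, although each of the 3 genes did, but they are sums of genes chosen on this contrast and are a description only. Of single genes tested, 5.26% lay wholly below, and the share for sums of 3 genes was not counted. *Gpx3* was 15.1%, 43.9% and 25.99% of the sum in AdArmc5 KO and 42.7%, 32.1% and 27.9% in Armc5 flox. It led in AdArmc5 KO replicate 2 and Armc5 flox replicate 1, while *Gpx1* led in the other 4 libraries. *Gpx1* was 29.8% to 48.0% of the sum in AdArmc5 KO and 36.4% to 51.8% in Armc5 flox, and *Gpx4* had its largest share, 39.4%, in AdArmc5 KO replicate 1 and its smallest, 20.2%, in Armc5 flox replicate 1.

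**Figure D3:**
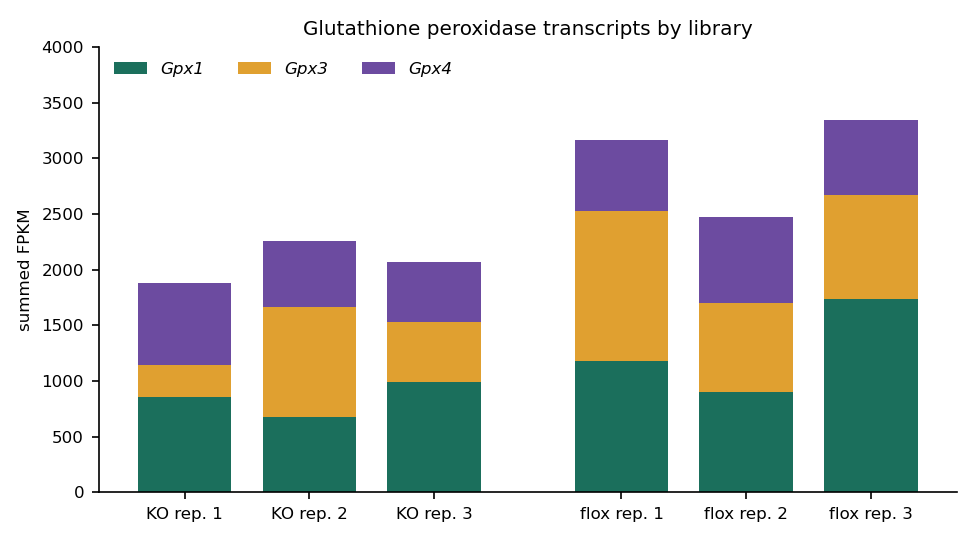
Stacked bars of the FPKM of *Gpx1*, *Gpx3* and *Gpx4* in each of the 6 libraries, with AdArmc5 KO left of Armc5 flox and the axis starting at 0. The sums lie between 1884 and 2261 FPKM in AdArmc5 KO and between 2477 and 3348 FPKM in Armc5 flox, and *Gpx3* takes from 15.1% to 43.9% of a bar.

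The ratio of *Gpx1*, a major product, to *Sephs2*, which supplies its selenium donor, was 36.03, 20.4 and 22.5 in AdArmc5 KO and 20.3, 19.4 and 15.2 in Armc5 flox. AdArmc5 KO replicate 2 and Armc5 flox replicate 1 were nearly level, and as both genes were chosen on this contrast the ratio adds a description only. The 10 genes did not share a highest library. Armc5 flox replicate 3 was the highest for 5 of them (*Sephs2*, *Secisbp2*, *Sepsecs*, *Eefsec* and *Gpx1*), Armc5 flox replicate 1 for 3 (*Gpx3*, *Txnrd1* and *Txnrd2*), Armc5 flox replicate 2 for *Gpx4* and the library labelled AdArmc5 KO replicate 3 for *Pstk*.

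The other selenoproteins served as the rest of the family. Of 18 further genes with an annotated selenocysteine codon, 17 were in the table and 13 were tested, 5 with a log2 fold change below 0 and 8 above, a median of 0.00. Over all genes tested, 56.5% were below 0 and the median was −0.03. None of the 13 was called by limma, and 0 had an unadjusted p under 0.05, beside 3.35% of all genes tested. *Selenop*, whose secreted product carries selenium in plasma, had 1027, 735 and 824 FPKM in AdArmc5 KO and 773, 1053 and 1364 FPKM in Armc5 flox (log2 fold change −0.28, SE 0.28). *Selenow*, which encodes a small redox protein, had 653, 454 and 412 FPKM in AdArmc5 KO and 355, 455 and 457 FPKM in Armc5 flox (0.24, SE 0.24). The genotypes overlapped in both, with *Selenow* highest in AdArmc5 KO replicate 1 and *Selenop* in Armc5 flox replicate 3. *Selenok*, for a protein of the endoplasmic reticulum, was the only one of the 13 without overlap. It lay wholly below, as did 5.26% of all genes tested, at 73.6, 74.4 and 69.7 FPKM in AdArmc5 KO and 78.6, 85.2 and 74.99 FPKM in Armc5 flox (−0.13, SE 0.12). *Selenoi*, an enzyme of phosphatidylethanolamine synthesis, had a log2 fold change of −0.18 (SE 0.16). These 4 genes had the smallest p of the list, and each had an adjusted p of 0.98 from limma.

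Glutathione peroxidases that use cysteine in place of selenocysteine give a comparison within the enzyme family. *Gpx7*, of the endoplasmic reticulum, had 21.6, 21.2 and 9.66 FPKM in AdArmc5 KO and 14.7, 17.3 and 13.2 FPKM in Armc5 flox (log2 fold change 0.13, SE 0.31, adjusted p = 0.99 from limma). *Gpx8*, also of the endoplasmic reticulum, had 26.6, 27.5 and 18.7 FPKM in AdArmc5 KO and 21.4, 27.1 and 20.3 FPKM in Armc5 flox (0.07, SE 0.19, adjusted p = 0.99 from limma). Both were lowest in the library labelled AdArmc5 KO replicate 3, and neither differed between the genotypes beyond the spread of the libraries. *Gpx5* and *Gpx6* were listed at 0 in 5 of 6 libraries each.

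A further 11 genes act in the synthesis or decoding of selenocysteine, and 10 of them had a log2 fold change below 0 (median −0.16). Over all genes tested, 56.5% were below 0 (median −0.03). *Trnau1ap*, which binds the selenocysteine tRNA, had 31.8, 31.9 and 25.8 FPKM in AdArmc5 KO, against 38.5, 32.04 and 32.5 FPKM in Armc5 flox (log2 fold change −0.20, SE 0.14). *Eif4a3*, which can bind the mRNA hairpin and hold back decoding, had 43.8, 42.9 and 45.9 FPKM in AdArmc5 KO, against 50.7, 46.3 and 62.1 FPKM in Armc5 flox (−0.25, SE 0.14). In both genes all AdArmc5 KO libraries were below all Armc5 flox libraries, for *Trnau1ap* by less than 0.1 FPKM at the closest pair, as in 5.26% of all genes tested. The RNA-binding proteins *Elavl1* (−0.29, SE 0.16) and *Celf1* (−0.16, SE 0.11) overlapped between the genotypes. The adjusted p of all 4 was 0.98 from limma. Of 3 receptors that take up SELENOP or related ligands, *Lrp1* was tested and had 110, 100 and 120 FPKM in AdArmc5 KO and 77.2, 129 and 127 FPKM in Armc5 flox (log2 fold change 0.02, SE 0.23, adjusted p = 0.999 from limma).

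The glutathione and thioredoxin genes supply the electrons that the peroxidases and reductases use or pass on. Of 13 tested, 11 had a log2 fold change below 0 (median −0.10), beside 56.5% of all genes tested (median −0.03). By limma, 0 of the 13 had an unadjusted p under 0.05, beside 3.35% of all genes tested. *Gsr*, glutathione reductase, had 18.7, 24.8 and 18.1 FPKM in AdArmc5 KO and 37.6, 21.5 and 22.2 FPKM in Armc5 flox (log2 fold change −0.35, SE 0.25). Its highest library was Armc5 flox replicate 1, as for *Txnrd1* and *Gpx3*. *Gclm*, the modifier subunit of the first enzyme of glutathione synthesis, had a log2 fold change of −0.25 (SE 0.22), and the glutaredoxins *Glrx3* and *Glrx5* had −0.23 (SE 0.23) and −0.27 (SE 0.27). Over all 50 tested genes of the pathway lists other than the 10 described, among them 10 of lipid peroxidation and ferroptosis, 34 were below 0 and 16 above, the median was −0.10, 3 (*Selenok*, *Trnau1ap* and *Eif4a3*) had AdArmc5 KO wholly below Armc5 flox, where 5.26% of all genes tested did, and limma called 0, with 0 at an unadjusted p under 0.05 and a lowest adjusted p of 0.98.

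*Sephs2* and *Armc5* lie on the same chromosome, 963.3 kb apart, so the genes around *Sephs2* were examined. Of the 98 other genes tested within 1500 kb, 58 had a log2 fold change below 0, beside 56.5% of all genes tested. Their median was −0.06, beside −0.03 for all genes tested, and their range was −0.86 to 1.40. Of the 98, 0 were lower than *Sephs2*. As *Sephs2* was chosen on this contrast and was the 33rd lowest of 12670 genes, few genes of any region could be lower. The count of 0 is therefore a description only. Within 500 kb, 34 of 51 were below 0, with a median of −0.09. The nearest gene on one side with at least 1 FPKM, *Dctpp1* (from 127256959 to 127260667), which encodes a nucleotide pyrophosphatase, had 19.8, 19.4 and 20.8 FPKM in AdArmc5 KO and 20.7, 17.8 and 21.3 FPKM in Armc5 flox (log2 fold change 0.01, SE 0.12, adjusted p = 0.999 from limma). The nearest on the other, *Itgal* (from 127296139 to 127335137), an integrin chain of leukocytes, had 3.04, 1.93 and 2.69 FPKM in AdArmc5 KO and 3.09, 2.47 and 1.25 FPKM in Armc5 flox (0.15, SE 0.27, adjusted p = 0.98 from limma). Both neighbours overlapped between the genotypes, as most genes did, since 5.26% of all genes tested lay wholly below and 3.54% wholly above. *Sephs2*, which lay wholly below, was chosen on this contrast, so the comparison is a description only.

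**Figure D4:**
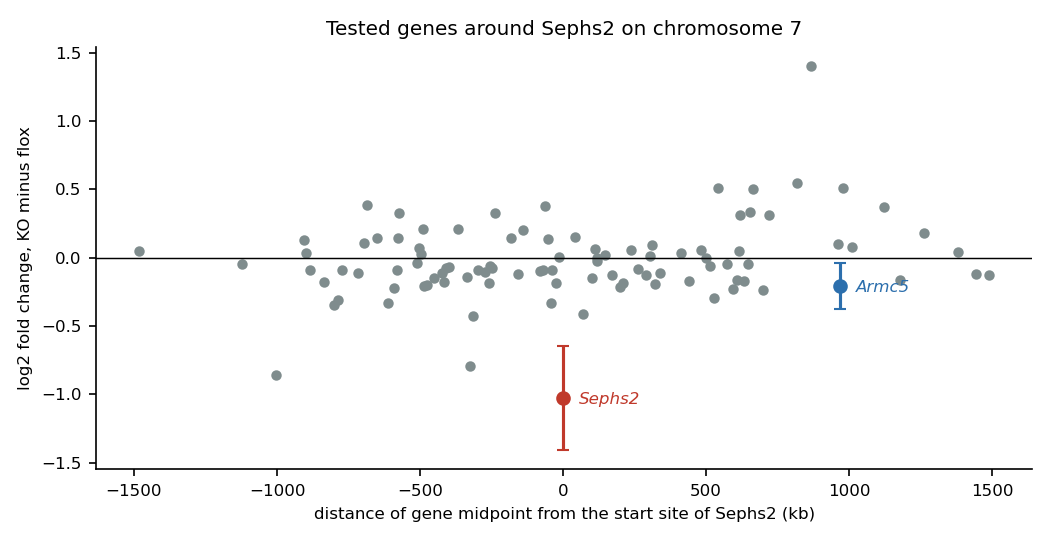
Log2 fold change, AdArmc5 KO over Armc5 flox, of each tested gene within 1500 kb of *Sephs2*, against the distance of its midpoint from the start of *Sephs2* in kb; each point is a gene, and bars on *Sephs2* and *Armc5* are the standard error from limma. *Sephs2*, which was chosen on this contrast, is the lowest point at −1.03. The other 98 genes lie between −0.86 and 1.40, and *Armc5* lies 963.3 kb away.

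The promoter of *Sephs2* is shown because it is the gene of the 10 whose libraries were apart. The 250 bases before its start in the RefSeq annotation (GRCm38.p6, chr7:127274060-127274309, minus strand) are printed from 5′ to 3′ with an E-box in capitals, whose first base is 160 bases before the start.
*Sephs2*: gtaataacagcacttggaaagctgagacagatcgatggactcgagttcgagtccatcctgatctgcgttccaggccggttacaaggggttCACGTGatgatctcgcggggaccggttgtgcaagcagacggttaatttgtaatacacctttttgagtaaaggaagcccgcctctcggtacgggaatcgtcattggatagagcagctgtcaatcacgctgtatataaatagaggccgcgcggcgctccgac

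As the series concerns SREBF1, a transcription factor that can bind sterol regulatory elements and E-boxes, 3 motifs were searched on both strands from 250 bases before to 50 bases after each start, in 14 windows of 9 of the 10 genes and in 32851 windows of all genes. The sterol regulatory element TCACNCCAC was in 0 windows of the 9 genes and in 1.24% of all windows. The E-box CACGTG was in 1 window each of *Sephs2* and *Secisbp2* (89 bases before the start), and in 7.15% of all windows. The core of the antioxidant response element, TGACNNNGC, a motif bound by NRF2, was in 1 window of *Txnrd1* (92 bases before that start) and in 12.4% of all windows. These matches describe letters in a window and are no measure of binding.

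Markers of other cells in WAT are given beside these results. The 10 macrophage markers summed to 930 to 1624 FPKM in AdArmc5 KO and 748 to 1442 FPKM in Armc5 flox. Of these, 9 had a log2 fold change above 0 and 1 below, where 56.5% of all genes tested were below. *Adgre1* overlapped between the genotypes, with 40.8, 23.2 and 20.9 FPKM in AdArmc5 KO and 13.4, 34.7 and 14.6 FPKM in Armc5 flox. *Cd68*, 1 of 2 macrophage markers wholly above, had 148, 119 and 99.3 FPKM in AdArmc5 KO and 56.2, 94.9 and 62.0 FPKM in Armc5 flox. The 8 fibroblast markers summed to 1545 to 1906 FPKM in AdArmc5 KO and 1384 to 1505 FPKM in Armc5 flox, without overlap. Taken singly, 6 of the 8 had a log2 fold change above 0 and 2 below, *Pdgfra* (−0.06) and *Dcn* (−0.09). The 3 of the 8 that lay wholly above were *Col1a1*, *Col1a2* and *Lum*, where 3.54% of all genes tested did. All 7 tested mesothelial markers were below 0, and their sums were 9.19 to 59.4 FPKM in AdArmc5 KO and 47.7 to 95.6 FPKM in Armc5 flox. The highest sum of each genotype was mostly *Krt19*, with 37.7 FPKM in AdArmc5 KO replicate 2 and 72.4 FPKM in Armc5 flox replicate 1. These are the libraries with high ciliated cell markers, and *Krt19* had at most 28.7 FPKM elsewhere. The 10 adipocyte markers summed to 26391 to 40637 FPKM in AdArmc5 KO and 34101 to 49199 FPKM in Armc5 flox, and the 8 endothelial markers to 488 to 595 FPKM in AdArmc5 KO and 503 to 674 FPKM in Armc5 flox. The part of these cells in the levels of *Sephs2*, *Gpx1* and *Gpx3* was not tested. No marker was called by limma (adjusted p of at least 0.73). An unadjusted p under 0.05 was seen in 2 of 10 macrophage, 3 of 8 fibroblast, 1 of 7 mesothelial and 1 of 8 endothelial markers. It was seen in 0 of 10 adipocyte markers and in 3.35% of all genes tested.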

How the data were processed

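Polyadenylated RNA of epididymal WAT was sequenced as stranded, paired-end libraries, 3 from AdArmc5 KO and 3 from Armc5 flox. The labels gave the genotype and the replicate number; the paper gave the age and the feeding. The submitters' processing notes name TopHat2 (version 2.0.13), Bowtie2 (version 2.2.3), SAMtools (version 0.1.19), Cuffnorm (version 2.2.1) and mm10. The annotation and the use of strand in counting were not given in the sources used here. Deposited were FPKM, made by the authors with Cuffnorm and analysed here, and normalized counts, a signal scaled for each library, which served as an alternative and for depth (98.7% to 98.9% of values were whole fragments within 0.1). Not all could be recovered as whole fragments, so no test for counts was run. FPKM carry no counting error; the 10 genes rested on 233 fragments (*Pstk*) to 61229 fragments (*Gpx3*) in a library. The authors' group means, fold changes and p-values, and 6 columns of per-sample log2 values, were not used.

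Values were fitted as log2(FPKM + 1), a scale that understates changes of low genes, by limma (version 3.58.1, in R version 4.3.3) with a mean-variance trend and genotype as the only term, over the 12670 genes with at least 1 FPKM in at least 3 libraries. Adjusted p-values follow Benjamini and Hochberg. All 10 genes passed the filter. The script was tested on simulated data. With 3 against 3 libraries the smallest p of an exact permutation test is 0.1. The paper gives n = 3 each for the sequencing, but the labels do not state that libraries came from separate mice. The p-values thus measure the spread between these samples.

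The 10 genes and the lists were chosen with earlier results of these data known. The named genes are the 10, *Armc5*, the 4 cysteine peroxidases, the nearest neighbours of *Sephs2* and leading cell markers. Up to 4 tested genes of each pathway list with the smallest p are also named. *Dio1*, *Lrp2*, *Ggt1*, *Ptgs2*, *Scly*, *Scd1*, *Hba-a1*, *Col1a2*, *Lum*, *Dcn* and *Krt19* were chosen after their values were seen. Coordinates are those of RefSeq GRCm38.p6 by NCBI Gene ID, selenocysteine codons are from GENCODE M21 (longest coding transcript), and promoter windows are from RefSeq GRCm38.p6, in which 9 of the 10 genes had a window. The alternatives tried were no filter, pseudocounts of 0.1 and 0.5, a trimmed mean of M values rescaling, the normalized counts (mean of at least 10), no trend in limma, a block for the replicate number, fits without each of the 6 libraries, and one with Armc5 flox replicate 1 with AdArmc5 KO replicate 2 left out.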

Additional observations from a re-analysis of the deposited data

How the results depend on the processing

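limma called 0 genes lower and 0 higher in AdArmc5 KO under all 14 alternatives, with 274 to 863 genes at an unadjusted p under 0.05. Of the 10 genes, 9 had a log2 fold change below 0 under 13 alternatives and 8 without Armc5 flox replicate 3, where *Secisbp2* was 0.11. The number with AdArmc5 KO wholly below Armc5 flox was 1 and ranged from 1 to 3 with each library left out: *Gpx4* and *Txnrd2* joined *Sephs2* without AdArmc5 KO replicate 1, *Gpx3* and *Txnrd1* without AdArmc5 KO replicate 2, *Gpx1* without the library labelled AdArmc5 KO replicate 3, and *Eefsec* and *Gpx1* without Armc5 flox replicate 2. It was 3 without both Armc5 flox replicate 1 and AdArmc5 KO replicate 2. *Pstk* was wholly above Armc5 flox without that pair, and also when replicate 2 of either genotype was left out. Smaller groups overlap less often by construction. With every library kept, 5.26% of all genes tested lay wholly below and 3.54% wholly above. These shares were not counted with libraries left out, so the counts are a description only. The log2 fold change of *Sephs2* ranged from −1.29 to −0.65. Of the 13 tested selenoproteins outside the 10 genes, 5 were below 0, and 5 to 8 with each library left out (8 when either Armc5 flox replicate 2 or the library labelled AdArmc5 KO replicate 3 was left out; the cause was not tested). Their median of 0.00 ranged from −0.04 to 0.10 and had the opposite sign in 4 of 14 alternatives.

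With the replicate number as a block, limma called 0 genes lower and 0 higher, and 575 had an unadjusted p under 0.05. In this balanced design the block leaves fold changes and overlaps as they are by construction. Deviations from the group means of same-numbered libraries correlated at −0.53, −0.41 and 0.58 across genes, against 0.75 for AdArmc5 KO replicate 2 with Armc5 flox replicate 1 and 0.68 for AdArmc5 KO replicate 1 with Armc5 flox replicate 2. The paper states that littermates were compared, but not which libraries came from the same litter. The labels do not say that a number marks a litter, so the numbers were not taken to pair the libraries.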

Other observations

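Genes of lipid peroxidation and ferroptosis, the form of cell death that GPX4 restrains, were measured beside the peroxidases. Of 12 listed, 10 were tested, with 8 below 0, 2 above 0 and a median log2 fold change of −0.21. Over all genes tested, 56.5% were below 0, with a median of −0.03. In this list limma called 0, with 0 at an unadjusted p under 0.05, beside 3.35% of all genes tested. *Ftl1*, the ferritin light chain that stores iron, had 2468, 2288 and 3312 FPKM in AdArmc5 KO, against 2987, 2699 and 6572 FPKM in Armc5 flox (log2 fold change −0.50, SE 0.41). Its highest library was Armc5 flox replicate 3, as for *Sephs2* and *Gpx1*. *Tfrc*, the transferrin receptor that takes up iron, had 5.95, 11.0 and 7.53 FPKM in AdArmc5 KO and 11.4, 8.64 and 12.6 FPKM in Armc5 flox (−0.40, SE 0.24). *Lpcat3*, which puts polyunsaturated fatty acids into phospholipids, had 44.1, 37.2 and 33.4 FPKM in AdArmc5 KO and 42.3, 47.2 and 49.4 FPKM in Armc5 flox (−0.28, SE 0.15). *Dhodh*, a mitochondrial enzyme of pyrimidine synthesis, had a log2 fold change of −0.24 (SE 0.18). The genotypes overlapped in these genes, and the adjusted p of each was 0.98 from limma.

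Some genes of selenium and glutathione metabolism differed between libraries far more than between genotypes. *Dio1*, a selenoprotein that activates thyroid hormone, had 4.04 FPKM in AdArmc5 KO replicate 2 and 4.20 FPKM in Armc5 flox replicate 1, against at most 0.0718 in the other 4. *Lrp2*, a receptor for SELENOP in kidney, had 18.3 FPKM in AdArmc5 KO replicate 2 and 18.6 FPKM in Armc5 flox replicate 1, against at most 0.352 in the other 4. *Ggt1*, which breaks down extracellular glutathione, had 35.7 FPKM and 38.5 FPKM in the same pair, against at most 0.517 in the other 4. These are the libraries in which ciliated cell markers were high and in which *Gpx3* led the peroxidases. *Ptgs2*, a prostaglandin synthase used as a marker of ferroptosis, had 65.6 FPKM in the library labelled AdArmc5 KO replicate 3 and at most 0.438 in the other 5. That library was also the one in which *Crisp1* (685 FPKM) and *Akr1b7* (3122 FPKM), markers of epididymis and vas deferens, were high. Neither the part of such tissue in the level of *Ptgs2* nor ferroptosis was tested. *Scly*, which releases selenium from selenocysteine, had 9.98, 13.9 and 23.4 FPKM in AdArmc5 KO and 20.2, 13.8 and 26.3 FPKM in Armc5 flox. Within each genotype its libraries stood in the same order as those of *Sephs2*.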
